A study of Homo sapiens with 33 samples.

Results

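The core genes of epithelial-to-mesenchymal transition (EMT) were followed in 3 head and neck squamous cell carcinoma (HNSCC) cell lines during the first 5 days of EGFR blockade. The set holds 10 of the 56470 gene symbols in the count table and was taken by symbol: the transcription factors SNAI1, SNAI2, ZEB1, ZEB2, TWIST1 and TWIST2, the cadherins CDH1, CDH2 and CDH3, and the intermediate filament gene VIM. The established lines SCC25, UM-SCC-1 (SCC1 below) and UM-SCC-6 (SCC6 below) received 100 nM cetuximab, an antibody against EGFR, or PBS as the untreated control, and polyA RNA was sequenced in bulk. There was 1 library for each line, treatment and day, with PBS from day 0 to day 5 and cetuximab from day 1 to day 5, which gave 33 libraries. For SCC6 with cetuximab, 2 libraries carry the label day 2 and no library carries day 1, and the pair is named 2a and 2b after the order in which the samples are listed. By the labels SCC1 and SCC25 were grown with hydrocortisone and SCC6 with non-essential amino acids instead, whereas the study's methods name 1 medium for all lines. Days stand in for replicates, so each p-value below weighs a change against the spread between 5 daily libraries of 1 culture series, which may be partly technical.

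EMT is the process in which epithelial cells loosen their junctions and take on a migratory, mesenchymal form. Factors of the SNAI, ZEB and TWIST families bind E-box DNA motifs, and the SNAI and ZEB proteins repress CDH1, the gene of E-cadherin, the adhesion molecule of epithelial junctions. Loss of E-cadherin with a gain of N-cadherin (CDH2) is called the cadherin switch, and vimentin (VIM) is the filament protein most used to mark mesenchymal cells, while P-cadherin (CDH3) is the cadherin of basal keratinocytes.

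Total counts per library were between 28508758 and 80727478, the highest in cetuximab-treated SCC6. All 8 keratinocyte markers (KRT5, KRT14, KRT6A, KRT17, TP63, SFN, DSG3 and ITGB4) averaged 1 CPM (counts scaled to a common library size) or more in every line and treatment. Their summed level was 2307 to 3642 CPM with PBS and 7157 to 12195 CPM with cetuximab in SCC1, 989 to 2775 and 1598 to 3061 CPM in SCC6, and 12675 to 19126 and 14810.4 to 18383 CPM in SCC25. The summed level of 9 fibroblast markers, among them COL1A1, COL1A2 and COL3A1, moved with treatment, from 51.4 to 72.9 CPM with PBS to 96.3 to 221 CPM with cetuximab in SCC1, from 3.44 to 5.33 CPM to 10.1 to 116 CPM in SCC6, and from 178 to 227 CPM to 292 to 459 CPM in SCC25. Of the fibroblast markers tested, 5 of 5 rose in SCC1, 2 of 3 rose in SCC6, and 5 of 9 rose and 1 fell in SCC25. Of the keratinocyte markers, 6 of 8 rose and 1 fell in SCC1, 3 rose and 2 fell in SCC6, and 1 rose and 1 fell in SCC25. Beside these counts, 44.5%, 30.1% and 18.2% of all genes were called in SCC1, SCC6 and SCC25 by the test described below. The summed levels of 6 endothelial markers stayed between 0.416 and 21.7 CPM over all lines. Those of 6 leukocyte markers went from 18.6 to 53.5 CPM with PBS to 8.35 to 16.7 CPM with cetuximab in SCC1, from 16.8 to 19.1 CPM to 4.17 to 7.25 CPM in SCC6, and from 166 to 233 CPM to 146 to 175 CPM in SCC25, where the T cell gene CD3E was at 0 in every library. CD68, a lysosomal gene of macrophages, fell in all 3 lines, by 2.15, 1.89 and 0.31 on the log2 scale in SCC1, SCC6 and SCC25 (edgeR adjusted p = 4.86e-05, 2.89e-05 and 0.0193). The part of these marker shifts in the results was not tested. In these bulk samples, fewer cells that express a gene and less RNA per cell cannot be told apart.

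With cetuximab the same genes took different directions in the 3 lines. In SCC1, VIM and ZEB1 fell and CDH1 rose, whereas in SCC6 CDH2, VIM and SNAI2 rose, and in SCC25 SNAI2 fell while CDH1 and CDH2 rose slightly. SNAI1 was the one member called lower in all 3 lines. ZEB1 was also below 0 in each line, but was not called in SCC25 (-0.10). By the quasi-likelihood test of edgeR, with p-values adjusted over all genes by Benjamini-Hochberg, 6 of the 9 members tested were called in SCC1, against 44.5% of all genes, and 6 of 9 were called in SCC6, against 30.1%. In SCC25, 4 of 10 were called, against 18.2% of all genes. The median log2 fold change of all genes tested was 0.02 in SCC1, 0.00 in SCC6 and 0.01 in SCC25. TWIST2 was removed by the filter on low counts in SCC1 and SCC6. The PBS and cetuximab levels did not overlap for 4 members in SCC1, 3 in SCC6 and 3 in SCC25, against 31.3%, 19.1% and 14.8% of all genes tested.

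**Figure D1:**
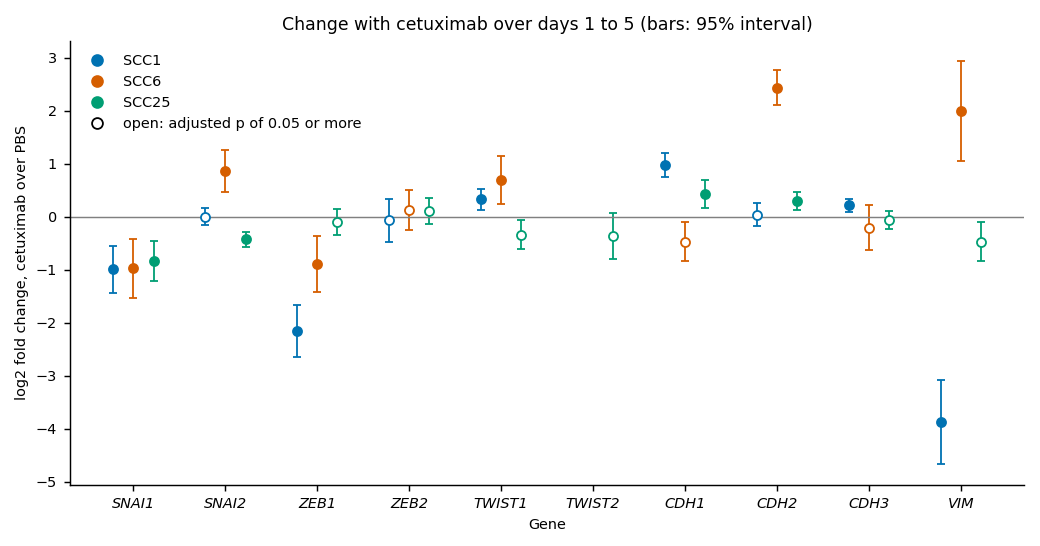
Log2 fold change of each gene with cetuximab over PBS on days 1 to 5 in SCC1, SCC6 and SCC25, with 5 libraries per treatment. Bars are 95% intervals, filled points have an adjusted p under 0.05, and TWIST2 has a point in SCC25 alone because it was filtered out in the others. VIM lies at -3.88 in SCC1 and at 2.00 in SCC6, and SNAI1 lies below 0 in all 3 lines.

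The sequence before the start site is shown for 3 members that moved most, VIM, CDH2 and ZEB1, from the RefSeq promoter table on GRCh38.p14. Windows were found for 5 of the 10 members, these and ZEB2 and TWIST2, and none for SNAI1, SNAI2, TWIST1, CDH1 and CDH3. Each run is the 250 bases before the most upstream start site, read 5′ to 3′ on the strand of the gene, with the motif CAGGTG in capitals on either strand (CACCTG on the opposite one), the E-box form that the SNAI and ZEB proteins are known to bind.
VIM, chr10:17227991-17228240, plus strand: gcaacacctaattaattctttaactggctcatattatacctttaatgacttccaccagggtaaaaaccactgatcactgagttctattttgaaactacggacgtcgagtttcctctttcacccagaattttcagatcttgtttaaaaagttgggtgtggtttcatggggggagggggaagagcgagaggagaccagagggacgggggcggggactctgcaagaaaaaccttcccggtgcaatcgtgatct
CDH2, chr18:28177131-28177380, minus strand: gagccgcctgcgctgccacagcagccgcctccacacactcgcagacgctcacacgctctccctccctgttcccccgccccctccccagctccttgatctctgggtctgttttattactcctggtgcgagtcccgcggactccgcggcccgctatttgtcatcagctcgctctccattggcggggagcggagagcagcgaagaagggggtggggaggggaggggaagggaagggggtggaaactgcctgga
ZEB1, chr10:31318167-31318416, plus strand: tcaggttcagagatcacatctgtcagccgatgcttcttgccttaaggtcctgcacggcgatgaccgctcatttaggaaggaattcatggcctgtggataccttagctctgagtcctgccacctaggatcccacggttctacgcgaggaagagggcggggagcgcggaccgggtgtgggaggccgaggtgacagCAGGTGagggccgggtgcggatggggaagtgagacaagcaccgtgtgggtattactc

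The ZEB1 window holds CAGGTG once, its first base 57 bases before the start site, and those of VIM and CDH2 do not hold it. Among 35116 promoter windows of the same length, 17.5% hold the motif at least once. The general E-box CANNTG, which includes CAGGTG and its reverse complement, is in 61.8% of all windows and is absent from the VIM and CDH2 windows. The AP-1 motif TGANTCA is in 6.57% of all windows and in none of the 3 shown. CDH2 has a second start site, whose window holds 1 CANNTG and 1 TGANTCA, and ZEB1 has 7 start sites, of which 2 have CAGGTG in their windows. GC content is 46% in the VIM window, 66% in that of CDH2 and 59.2% in that of ZEB1. A match is a description of letters and not a bound site.

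VIM had the largest change of the set in SCC1. Its level with PBS on days 1 to 5 was 109.8, 211, 248, 240.5 and 146 CPM, and with cetuximab it was 22.1, 12.8, 12.6, 8.29 and 8.69 CPM. Every cetuximab library lay below every PBS library, with the PBS levels highest on days 2 to 4 and the cetuximab levels lowest on days 4 and 5. The mean was 191 ± 60.7 CPM with PBS and 12.9 ± 5.54 CPM with cetuximab (SD, n = 5 each), a log2 fold change of -3.88 (SE 0.35, edgeR adjusted p = 3e-05), or 0.0681 of the PBS level.

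In SCC6 the direction of VIM was the opposite. With PBS it was 167, 114, 80.7, 47.8 and 36.5 CPM on days 1 to 5, and with cetuximab it was 243 CPM in 2a, 155 CPM in 2b and 407, 463 and 547 CPM on days 3, 4 and 5. The ranges overlapped, since the cetuximab library 2b lay under PBS of day 1, while from day 3 on each cetuximab library was above all PBS libraries. The log2 fold change was 2.00 (SE 0.43, edgeR adjusted p = 0.00513), from a mean of 89.3 ± 53.0 CPM to 363 ± 161 CPM (SD, n = 5 each). The PBS level itself fell with time, by 0.51 log2 units per day from day 0 to day 5 (SE 0.04, edgeR adjusted p = 0.000123). At the same days cetuximab was 0.49 log2 units above PBS over the first 2 days and 2.33, 3.27 and 3.90 above it at days 3, 4 and 5, so that both the fall with PBS and the rise with cetuximab entered the difference. The cetuximab libraries of days 4 and 5 came from a flow cell that holds no other library. PBS of days 0 and 1 came from another flow cell than PBS of days 2 to 5. The SCC6 slopes with PBS, here and below, are therefore partly tied to the flow cell.

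SCC25 had the highest VIM level of the 3 lines with PBS. It was 1143, 1180.3, 950.2, 799.7 and 700.3 CPM with PBS and 848, 838, 573, 621 and 575 CPM with cetuximab on days 1 to 5. Each cetuximab library was lower than PBS of its own day, but the ranges overlapped because PBS fell by 0.15 log2 units per day (SE 0.03, edgeR adjusted p = 0.00138). The log2 fold change was -0.47 (SE 0.17, edgeR adjusted p = 0.0772) and was not called. With day as a block, which removes the shared time course, it was -0.46 with an edgeR adjusted p of 0.000755 and was called, as it was without the PBS library of day 5 (edgeR adjusted p = 0.0361).

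**Figure D2:**
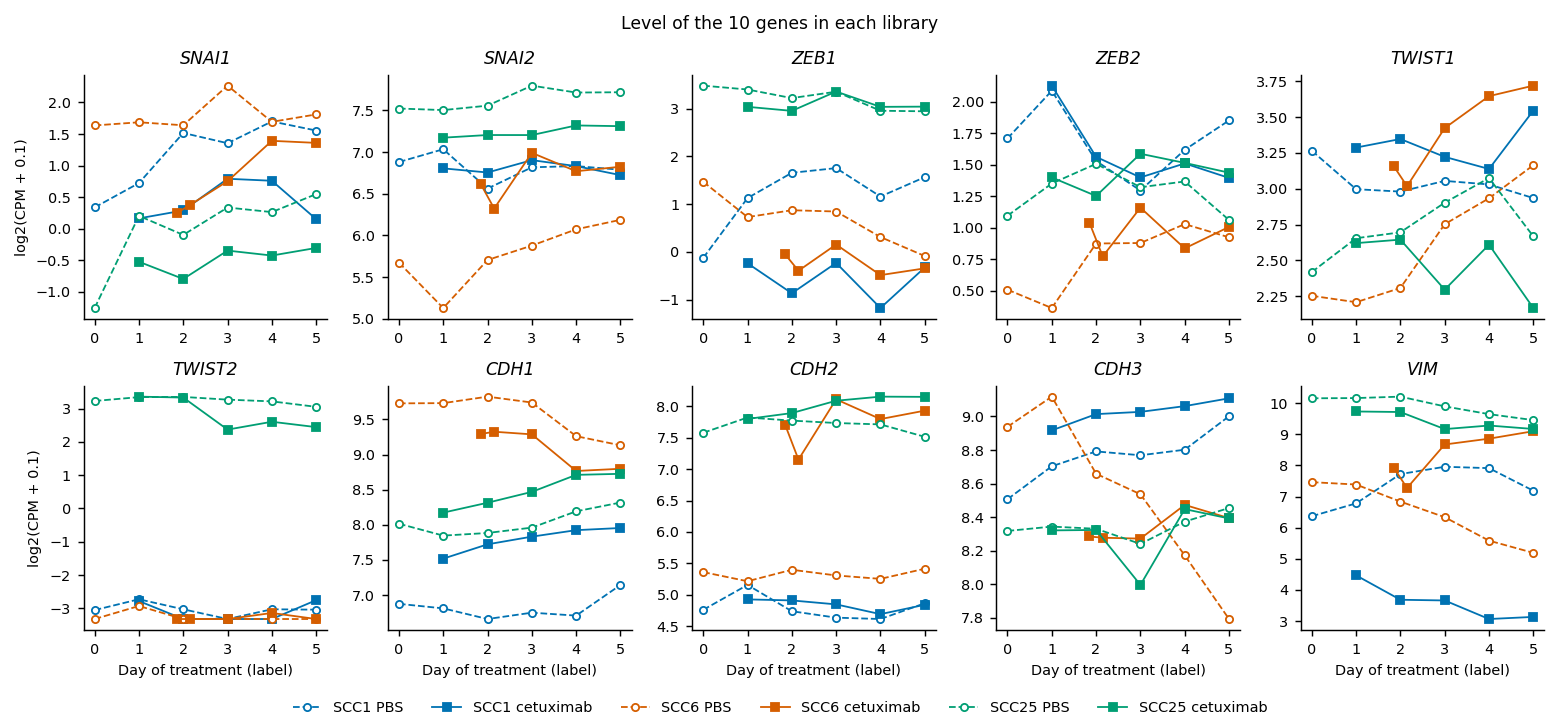
Level of each of the 10 genes, as log2(CPM + 0.1), by labelled day of treatment. Each point is 1 library, open circles with broken lines are PBS, filled squares with full lines are cetuximab, and colours are the lines. The cetuximab libraries 2a and 2b of SCC6 stand side by side at day 2. VIM with PBS runs down with the days in SCC6, from 176 to 36.5 CPM, while VIM with cetuximab runs up.

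CDH1, the E-cadherin gene, rose in SCC1. It was 112, 101, 107, 104 and 141 CPM with PBS on days 1 to 5 and 183, 211, 228, 243 and 248 CPM with cetuximab. The groups did not overlap, and the cetuximab level was higher on each later day. The log2 fold change was 0.98 (SE 0.10, edgeR adjusted p = 1.28e-05), or 1.98 times PBS.

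SCC6 had the highest CDH1 level. With PBS it was 849.9, 906, 855, 613 and 561 CPM on days 1 to 5, and with cetuximab it was 627 CPM in 2a, 641 CPM in 2b and 625, 435 and 445 CPM on days 3 to 5. Cetuximab was lower than PBS at each of the 4 matched time points, by 0.33 to 0.50 log2 units, while both treatments were lower on days 4 and 5 than before. The log2 fold change was -0.47 (SE 0.17, edgeR adjusted p = 0.0552) and was not called, but with day as a block it was -0.47 with an edgeR adjusted p of 0.00205. It was also called without PBS of day 5 (edgeR adjusted p = 0.0243), PBS of day 4 (0.0482) or cetuximab 2b (0.0406). With the flow cell as a covariate it was -0.23 (edgeR adjusted p = 0.325).

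In SCC25, CDH1 was 229.9, 236, 249, 292 and 319 CPM with PBS and 288, 318, 354, 419 and 423 CPM with cetuximab on days 1 to 5. Both treatments were higher on later days and cetuximab was higher on all 5 days. The log2 fold change was 0.44 (SE 0.12, edgeR adjusted p = 0.0293). The groups overlapped because PBS of days 4 and 5 reached the cetuximab levels of days 1 and 2. The call was lost without any 1 of 5 libraries, PBS of day 1, 2 or 3 or cetuximab of day 4 or 5, with an adjusted p of at most 0.0781.

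CDH2, the N-cadherin gene, rose in SCC6, by more than VIM over all days and by less than VIM on days 4 and 5. With PBS it was steady, at 37.0, 42.1, 39.5, 38.0 and 42.5 CPM on days 1 to 5. With cetuximab it was 209 CPM in 2a, 142 CPM in 2b and 277, 223 and 244 CPM on days 3 to 5. No library of one group came near the other, and the log2 fold change was 2.44 (SE 0.15, edgeR adjusted p = 2.99e-06), or 5.42 times PBS.

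In SCC25, CDH2 rose by 0.30 on the log2 scale (SE 0.08, edgeR adjusted p = 0.0187). It was 226, 219, 213, 209.9 and 183 CPM with PBS and 223, 238, 273, 285 and 284 CPM with cetuximab on days 1 to 5. On day 1 the treatments were within 0.02 log2 units of each other, and on day 5 cetuximab was 0.64 above PBS. The cetuximab libraries of days 3 to 5 came from another flow cell than all other SCC25 libraries, and this timing cannot be told apart from it. Without the cetuximab library of day 4 the edgeR adjusted p was 0.0549. In SCC1, CDH2 was 24.4 to 35.6 CPM with PBS and 25.7 to 30.3 CPM with cetuximab, a log2 fold change of 0.04 with a 95% interval from -0.18 to 0.25.

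CDH3 lies beside CDH1 on chromosome 16, with 9823 bases between the end of CDH3 and the start of CDH1 in GENCODE on GRCh37. In SCC1, CDH3 was 417 to 512 CPM with PBS and 483 to 552 CPM with cetuximab, a log2 fold change of 0.22 (SE 0.06, edgeR adjusted p = 0.00788), smaller than that of CDH1. In SCC6 the PBS level fell from 556 CPM on day 1 to 221 CPM on day 5 and the cetuximab level stayed between 309 and 355 CPM. The difference therefore changed sign over the course, from -0.56 on days 1 to 3 (edgeR adjusted p = 0.0302) to 0.43 on days 4 and 5 (edgeR adjusted p = 0.0998). The cetuximab libraries of days 4 and 5 came from a flow cell of their own, so the change of sign cannot be told apart from the flow cell. In SCC25 the log2 fold change of CDH3 was -0.05 with a 95% interval from -0.22 to 0.12.

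The balance between cadherins can be followed inside each library as a ratio of counts, which does not depend on scaling between libraries. These counts are not divided by transcript length, so a ratio has meaning only against other libraries. In SCC6 the ratio of CDH2 to CDH1 was 0.0436 to 0.0759 with PBS and 0.222 to 0.549 with cetuximab on days 1 to 5, and in SCC1 it went the other way, from 0.205 to 0.317 with PBS to 0.106 to 0.165 with cetuximab. Neither pair of ranges overlapped. In SCC25 the ranges overlapped, at 0.574 to 0.985 with PBS and 0.672 to 0.773 with cetuximab. The PBS ratio fell from 0.985 on day 1 to 0.574 on day 5. Cetuximab was below PBS of the same day on days 1 to 4 and above it on day 5.

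The ratio of VIM to CDH1 covered a wider span. It was 0.979 to 2.31 with PBS and 0.0342 to 0.12 with cetuximab in SCC1, 0.065 to 0.197 and 0.241 to 1.23 in SCC6, and 2.20 to 5.00 and 1.36 to 2.94 in SCC25. By this ratio SCC1 and SCC6 changed places: with PBS every SCC1 library was above every SCC6 library, and with cetuximab every SCC6 library was above every SCC1 library. The ratio of CDH3 to CDH1 was lower with cetuximab in SCC1, at 2.20 to 2.64 against 3.63 to 4.39 with PBS. In SCC25 it was 0.720 to 1.108 against 1.10 to 1.412, and lower than PBS of the same day on each day. The SCC6 ranges overlapped, at 0.484 to 0.816 with cetuximab and 0.395 to 0.654 with PBS.

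**Figure D3:**
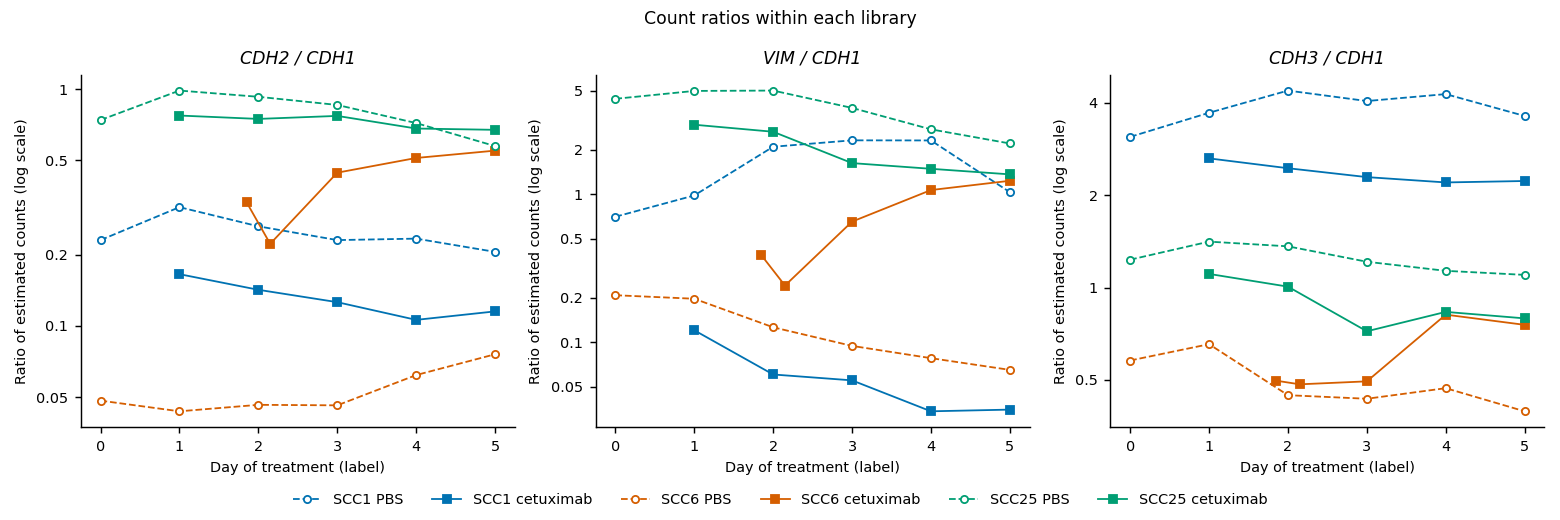
Ratios of estimated counts of CDH2, VIM and CDH3 to CDH1 within each library, on log axes, by labelled day. Open circles are PBS and filled squares are cetuximab. The CDH2 ratio of SCC6 is at most 0.0759 with PBS and is at least 0.222 with cetuximab, and the VIM ratio of SCC1 falls to 0.0342.

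SNAI1 encodes Snail, a short-lived zinc-finger repressor of CDH1 and an early factor in EMT. In SCC1 it was 1.55, 2.76, 2.46, 3.15 and 2.84 CPM with PBS and 1.02, 1.12, 1.63, 1.59 and 1.01 CPM with cetuximab on days 1 to 5. The ranges met only at PBS of day 1, and the log2 fold change was -0.99 (SE 0.21, edgeR adjusted p = 0.00163). In SCC6 it was 3.12, 3.01, 4.71, 3.13 and 3.41 CPM with PBS, and 1.09 CPM in 2a, 1.20 CPM in 2b and 1.59, 2.53 and 2.47 CPM on days 3 to 5 with cetuximab.

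The SCC6 groups did not overlap for SNAI1, and the change of -0.97 (SE 0.26, edgeR adjusted p = 0.0145) was larger on days 1 to 3, at -1.51 (edgeR adjusted p = 0.0011), than the fit over all days gives. In SCC25, SNAI1 was 1.05, 0.835, 1.16, 1.10 and 1.36 CPM with PBS and 0.597, 0.477, 0.687, 0.646 and 0.711 CPM with cetuximab, again without overlap, a log2 fold change of -0.83 (SE 0.17, edgeR adjusted p = 0.0066). These levels rest on 23 to 189 counts per library. Cetuximab was lower at all 14 matched time points over the 3 lines. PBS of day 0 was 1.16 CPM in SCC1, within the cetuximab range, 3.01 CPM in SCC6 and 0.319 CPM in SCC25, below every cetuximab library. With day 0 added to PBS the change was -0.86 in SCC1 (edgeR adjusted p = 0.0133) and -0.94 in SCC6 (0.0114). In SCC25 it was then -0.63 (edgeR adjusted p = 0.14) and was not called.

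SNAI2 encodes Slug, which is also expressed in basal keratinocytes, and it moved in opposite directions in SCC6 and SCC25. In SCC6 it was 34.9, 52.1, 58.7, 67.2 and 72.8 CPM with PBS, and 97.8 CPM in 2a, 80.0 CPM in 2b and 127, 109 and 113 CPM on days 3 to 5 with cetuximab. The groups did not overlap and the log2 fold change was 0.87 (SE 0.18, edgeR adjusted p = 0.00426). The PBS level also rose, by 0.14 log2 units per day (edgeR adjusted p = 0.0361).

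In SCC25, SNAI2 was 181, 188, 222, 210.0 and 211 CPM with PBS and 144, 147, 147, 159.7 and 159 CPM with cetuximab on days 1 to 5. All cetuximab libraries lay below all PBS libraries, with a log2 fold change of -0.42 (SE 0.06, edgeR adjusted p = 0.00094). In SCC1 it was 94.4 to 131 CPM with PBS and 106 to 119.6 CPM with cetuximab and its log2 fold change had a 95% interval from -0.16 to 0.16.

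ZEB1 encodes a zinc-finger homeobox repressor of CDH1 that is held down by the miR-200 family in epithelial cells. In SCC1 it was 2.09, 3.05, 3.28, 2.14 and 2.86 CPM with PBS and 0.749, 0.449, 0.753, 0.343 and 0.698 CPM with cetuximab on days 1 to 5. The groups of days 1 to 5 were far apart, and the log2 fold change was -2.15 (SE 0.23, edgeR adjusted p = 8.7e-06), or 0.225 of the PBS level, from 14 to 33 counts per cetuximab library. PBS of day 0 was 0.817 CPM, close to the cetuximab libraries and below PBS of every later day, so the difference also holds a rise with PBS. With day 0 added to PBS the change was -1.98 (edgeR adjusted p = 0.000329).

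In SCC6, ZEB1 was 1.56, 1.73, 1.70, 1.14 and 0.843 CPM with PBS, and 0.865 CPM in 2a, 0.662 CPM in 2b and 1.01, 0.615 and 0.688 CPM on days 3 to 5 with cetuximab. PBS fell by 0.29 log2 units per day (edgeR adjusted p = 0.0128) and on day 5 reached the cetuximab levels. Without day 0 that slope was -0.24 (edgeR adjusted p = 0.145). The log2 fold change was -0.88 (SE 0.24, edgeR adjusted p = 0.0168). In SCC25, the line with the highest ZEB1 level, it was 7.60 to 10.5 CPM with PBS and 7.65 to 10.2 CPM with cetuximab, a log2 fold change of -0.10 with a 95% interval from -0.35 to 0.14.

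ZEB2, the second ZEB factor, was not called in any line. Its mean was 3.15 ± 0.693 CPM with PBS and 2.99 ± 0.729 CPM with cetuximab in SCC1, 1.68 ± 0.288 and 1.86 ± 0.212 CPM in SCC6, and 2.41 ± 0.272 and 2.62 ± 0.235 CPM in SCC25 (SD, n = 5 each). The 95% intervals of its change were -0.46 to 0.33 in SCC1, -0.25 to 0.50 in SCC6 and -0.14 to 0.36 in SCC25.

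TWIST1, a basic helix-loop-helix factor of mesoderm development and EMT, averaged 6.48 to 7.90 CPM in the 3 lines with PBS. In SCC1 it was 7.55 to 8.21 CPM with PBS and 8.70 to 11.6 CPM with cetuximab, without overlap, a log2 fold change of 0.33 (SE 0.09, edgeR adjusted p = 0.00849). In SCC6 it was 4.52, 4.85, 6.64, 7.54 and 8.87 CPM with PBS, and 8.83 CPM in 2a, 8.0 CPM in 2b and 10.6, 12.4 and 13.1 CPM on days 3 to 5 with cetuximab. Both treatments ran upwards with time.

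The TWIST1 change in SCC6 was 0.69 (SE 0.21, edgeR adjusted p = 0.0254). It was no longer called without any 1 of 5 libraries, PBS of day 2 or 3 or cetuximab of day 3, 4 or 5, with an adjusted p of at most 0.0741. In SCC25 it was 6.20 to 8.33 CPM with PBS and 4.39 to 6.16 CPM with cetuximab. The ranges did not overlap, and the change of -0.34 had an edgeR adjusted p of 0.0823 and was called by DESeq2 (adjusted p = 0.0495). By day, the log2 ratio to PBS was -0.03 and -0.05 on days 1 and 2 and -0.61, -0.47 and -0.50 on days 3 to 5. The cetuximab libraries of days 3 to 5 came from another flow cell than all other SCC25 libraries, and the timing cannot be told apart from it. With the flow cell as a covariate the change was -0.17 (edgeR adjusted p = 0.544).

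TWIST2, the close relative of TWIST1, separated the lines. In SCC1 and SCC6 it had 0 to 2 counts per library on days 1 to 5, at or under the floor of 3 counts. In SCC25 it had 199 to 526 counts and was 10.1, 10.1, 9.54, 9.20 and 8.20 CPM with PBS and 10.2, 9.97, 5.07, 5.98 and 5.34 CPM with cetuximab. The cetuximab level matched PBS on days 1 and 2 and was lower on days 3 to 5. The change over all days was -0.37 with an edgeR adjusted p of 0.221, and that on days 4 and 5 was -0.62 with an edgeR adjusted p of 0.251. The cetuximab libraries of days 3 to 5 came from another flow cell than all other SCC25 libraries, and the timing cannot be told apart from it.

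The treatment effect was compared between lines in a fit with line-by-treatment terms. The change differed between lines for 6 of the 10 members (SNAI2, ZEB1, TWIST1, CDH1, CDH2 and VIM), against 26% of all genes tested. With the flow cell as a covariate the call of TWIST1 was lost (edgeR adjusted p = 0.156). For VIM, the change in SCC1 minus that in SCC6 was -5.91 on the log2 scale (SE 0.53, edgeR adjusted p = 6.62e-09). For CDH2, the change in SCC6 was 2.43 log2 units above that in SCC1, written as -2.43 for SCC1 minus SCC6 (SE 0.17, edgeR adjusted p = 4.99e-11). For CDH1, SCC1 minus SCC6 was 1.43 (SE 0.20, edgeR adjusted p = 6.44e-06).

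Between SCC6 and SCC25, 6 members differed, against 17.5% of genes. CDH2 (2.15, edgeR adjusted p = 4.05e-10), VIM (2.49, 0.00081), SNAI2 (1.30, 6.46e-06) and TWIST1 (1.04, 0.00113) were higher in the change of SCC6, and CDH1 (-0.89, 0.00245) and ZEB1 (-0.77, 0.0488) were lower. Between SCC1 and SCC6, 5 members differed, against 19.2% of genes, and the other members in this contrast were SNAI2 (-0.89, edgeR adjusted p = 0.000541) and ZEB1 (-1.29, 0.00212). Between SCC1 and SCC25, VIM (-3.42, edgeR adjusted p = 3.82e-05) and ZEB1 (-2.06, 5.15e-06) differed, 2 of 10 against 8.5% of genes. With day as a block, CDH1 (0.54, edgeR adjusted p = 0.000707) and TWIST1 (0.65, 0.00773) also differed between SCC1 and SCC25. The ZEB1 difference between SCC6 and SCC25 was called in 7 of the 30 fits that left out 1 library, with an edgeR adjusted p of at most 0.112. With the flow cell as a covariate, CDH1 (-0.39, edgeR adjusted p = 0.295), TWIST1 (0.59, 0.129) and ZEB1 lost their calls between SCC6 and SCC25. These contrasts share libraries, so they are not independent of each other. By the labels SCC6 was grown in another medium, and if so, contrasts with SCC6 cannot be told apart from the medium. For SNAI1 no pair of lines was called, so its fall was not shown to be unequal.

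Flow cell and treatment were partly tied, so each change was also fitted with the flow cell in the labels as a covariate. The comparison then rests on the flow cells that hold both treatments: in SCC1 on 1 PBS library (day 5) and all 5 cetuximab libraries, in SCC6 on 4 PBS libraries (days 2 to 5) and 3 cetuximab libraries (2a, 2b and day 3), and in SCC25 on all 5 PBS libraries and 2 cetuximab libraries (days 1 and 2). In SCC1 the within-flow-cell changes were -3.49 for VIM (edgeR adjusted p = 0.00246), -2.24 for ZEB1 (0.000849), -1.15 for SNAI1 (0.0289) and 0.67 for CDH1 (0.00694). TWIST1 (0.39, 0.102) and CDH3 (0.04, 0.812) lost their calls.

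In SCC6 the within-flow-cell changes were 2.36 for CDH2 (edgeR adjusted p = 1.84e-05), 1.93 for VIM (0.0226), 0.69 for SNAI2 (0.00521) and -1.47 for SNAI1 (0.000356). ZEB1 (-0.67, 0.103) and TWIST1 (0.39, 0.132) were no longer called. In the labels, the PBS and the cetuximab libraries of this SCC6 comparison carry different numbers after the flow cell name. Treatment cannot be told apart from that number in this fit. In SCC25, SNAI1 (-1.03, edgeR adjusted p = 0.0218) and SNAI2 (-0.47, 0.00516) kept their calls, while CDH1 (0.20, 0.39) and CDH2 (0.14, 0.304) did not and VIM moved to -0.17 (0.619). Day and flow cell cannot be told apart in these last values, since the cetuximab libraries left in the comparison are the early ones.

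**Figure D4:**
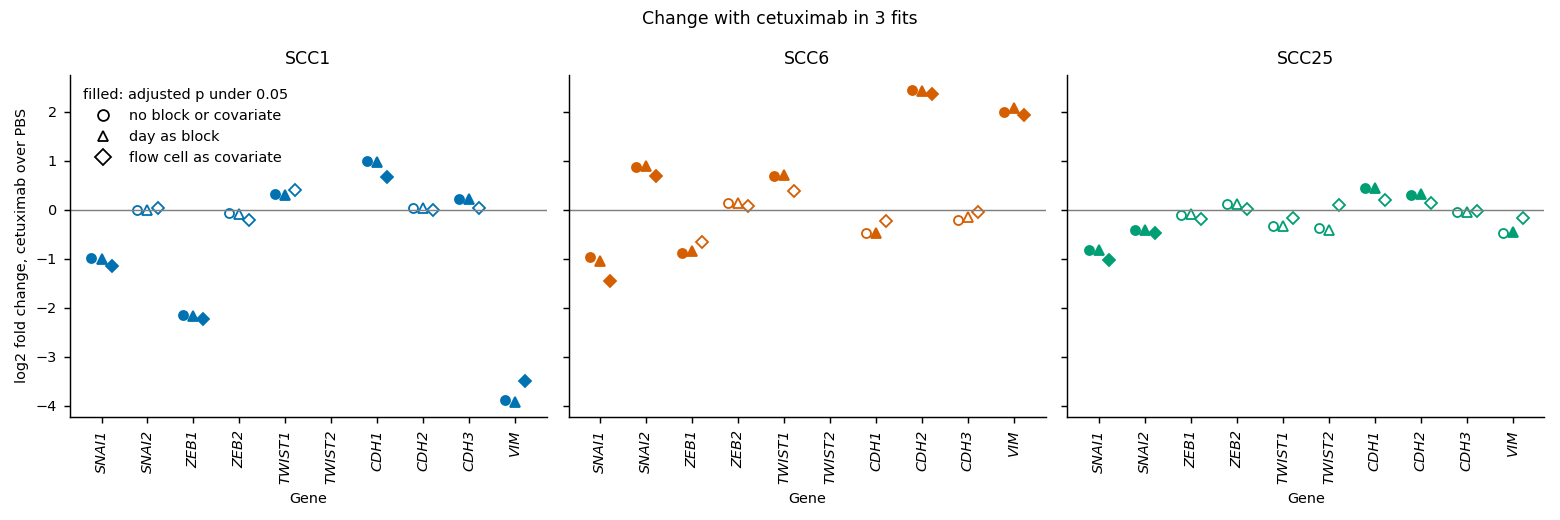
Log2 fold change of each gene with cetuximab over PBS in SCC1, SCC6 and SCC25 from 3 fits: without block or covariate (circles), with day as a block (triangles) and with flow cell as covariate (diamonds). Filled symbols have an adjusted p under 0.05. The large changes, VIM at -3.88, -3.92 and -3.49 in SCC1 and CDH2 at 2.44, 2.41 and 2.36 in SCC6, stay close together.

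To follow the timing, days 1 to 3 and days 4 and 5 were fitted as separate periods. In SCC6 both cetuximab libraries of days 4 and 5 came from a flow cell that holds no other library. A difference between the periods therefore cannot be told apart from the flow cell in SCC6. In SCC25 the cetuximab libraries of days 3 to 5 came from another flow cell than the rest, so period and flow cell are partly tied. In SCC1, 5 of 9 members were called in the first period, against 29.5% of genes, and 4 of 9 in the second, against 29.8%. In SCC1, VIM changed by -3.59 (edgeR adjusted p = 0.000822) in the first period and by -4.50 (0.000827) in the second. In SCC6, VIM changed by 1.11 (edgeR adjusted p = 0.0501) and then by 3.57 (0.000522), while CDH2 was already at 2.37 (5.52e-05) in the first period and at 2.53 (0.000113) in the second. On days 1 to 3, 7 of 9 members were called in SCC6, against 20.3% of genes, and on days 4 and 5 it was 5 of 9, against 37.5%. CDH1 was among them, at -0.50 (edgeR adjusted p = 0.00119), and it was at -0.42 (0.00522) on days 4 and 5. In SCC25, 2 of 10 members were called on days 1 to 3, against 7.85% of genes, CDH1 (0.44, edgeR adjusted p = 0.00998) and SNAI2. On days 4 and 5, 3 of 10 were called, against 2.77%, these genes and CDH2 (0.53, edgeR adjusted p = 0.0252). These later calls were often lost when 1 library was left out. CDH1 and SNAI2 were each called in 2 of 10 such fits and CDH2 in 5 of 10.

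A difference between the periods was not called for any member in any line by edgeR, nor for any gene. At an unadjusted p under 0.05 there were 3 members in SCC6, 1 in SCC25 and 0 in SCC1, against 29.2%, 2.84% and 7.09% of all genes. The members in SCC6 were VIM (later minus earlier 2.47, edgeR adjusted p = 0.0958), CDH3 (0.99, 0.0958) and SNAI1 (1.12, 0.0962), and by DESeq2, which called 21.5% of the genes it gave an adjusted p, all 3 were called (adjusted p = 0.00921, 0.0104 and 0.039). The member in SCC25 was CDH2 (0.37, edgeR adjusted p = 1).

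With PBS alone, the members drifted most in SCC6. Over days 0 to 5, 6 of 9 had a slope that was called, against 32.5% of all genes. In SCC6, PBS of days 0 and 1 came from another flow cell than PBS of days 2 to 5. In SCC1, PBS of day 5 came from another flow cell than PBS of days 0 to 4. Day and flow cell are therefore partly tied in the slopes of these lines. VIM, CDH3 and ZEB1 fell, as given above for VIM and ZEB1, and CDH3 by 0.26 log2 units per day (edgeR adjusted p = 0.00145). CDH1 fell by 0.14 (0.0172), while TWIST1 rose by 0.19 (0.0106) along with SNAI2. Without day 0, ZEB1 lost its call (-0.24, edgeR adjusted p = 0.145) and the others kept theirs. In SCC25, 3 of 10 were called, against 11% of genes: VIM, ZEB1 (-0.11, edgeR adjusted p = 0.0273) and CDH1 (0.08, 0.0445). SNAI1 (0.26 per day, edgeR adjusted p = 0.0639) and SNAI2 (0.06, 0.0754) were not, but DESeq2 called them (adjusted p = 0.0467 and 0.0481). The share of all genes that DESeq2 called there is not given. On days 1 to 5 alone, SNAI1 was 0.11 per day (edgeR adjusted p = 0.502) and SNAI2 was 0.06 (0.22). ZEB1 then lost its call (-0.12, edgeR adjusted p = 0.0996), while VIM and CDH1 kept theirs. In SCC1 none of 9 was called by edgeR, against 2.68% of genes. SNAI1 (0.25 per day) and CDH3 (0.07 per day) had an unadjusted p under 0.05. DESeq2 called both (adjusted p = 0.0153 and 0.0295), as it did 10.2% of the genes it gave an adjusted p. Leaving out day 0, they were 0.17 (edgeR adjusted p = 0.403) and 0.05 (0.366) per day.

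Levels with PBS were also compared between lines. On days 1 to 5, 8 of 10 members differed between lines, against 87.2% of all genes, so that a difference was the rule for any gene. By pairs, 7 members differed between SCC1 and SCC6, against 68.9% of genes, 8 between SCC6 and SCC25, against 72%, and 8 between SCC1 and SCC25, against 68.3%. VIM ran in the order SCC25, SCC1, SCC6, with means of 955 ± 209, 191 ± 60.7 and 89.3 ± 53.0 CPM (SD, n = 5 each). CDH1 ran in the order SCC6, SCC25, SCC1, with 757 ± 158, 265 ± 38.6 and 113 ± 16.2 CPM, and CDH2 in the order SCC25, SCC6, SCC1, with 210.2 ± 16.5, 39.8 ± 2.42 and 28.0 ± 4.58 CPM. Each neighbouring pair in these 3 orders was called by edgeR, the closest being CDH2 between SCC1 and SCC6 (log2 difference -0.52, adjusted p = 0.000104) and VIM between the same lines (1.09, 0.0142). The VIM step did not hold over the whole course, since SCC1 was below SCC6 on day 0 (82.4 against 176 CPM) and day 1 (109.8 against 167 CPM), and with day 0 added it was 0.73 (edgeR adjusted p = 0.0698).

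SNAI2 and ZEB1 both ran in the order SCC25, SCC1, SCC6 on days 1 to 5, with means of 203, 112 and 57.1 CPM for SNAI2 and 9.02, 2.68 and 1.39 CPM for ZEB1. SNAI1 ran in the order SCC6, SCC1, SCC25, with means of 3.48, 2.55 and 1.10 CPM. Its step between SCC1 and SCC6 (-0.45, edgeR adjusted p = 0.0415) lost its call without any 1 of 7 libraries and with day 0 added (-0.56, 0.0644). The ZEB1 step between SCC1 and SCC6 (0.94, edgeR adjusted p = 0.000371) was lost with day 0 added (0.55, 0.0848) and with the flow cell (0.86, 0.174), and on day 0 ZEB1 was 0.817 CPM in SCC1 and 2.67 CPM in SCC6. ZEB2 was lower in SCC6 than in SCC1 (0.90 for SCC1 minus SCC6, edgeR adjusted p = 0.000178) and SCC25 (-0.52 for SCC6 minus SCC25, 0.0131), while SCC1 minus SCC25 was 0.38 (0.0525), which was called with day 0 added (0.42, 0.0178). TWIST2 was at or under the floor in SCC1 and SCC6, so no fold is given. TWIST1 and CDH3 were not called in the test over all lines, and for CDH3 the pair SCC1 and SCC25 was called alone (0.46, 0.0249).

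No flow cell holds PBS libraries of days 1 to 5 from both SCC25 and another line, so those differences cannot be told apart from the flow cell. If the media in the labels hold, differences between SCC6 and the other lines cannot be told apart from the medium either. SCC1 and SCC6 share 1 flow cell, with 1 library each. Between these, the difference for VIM turned to -0.22, from 146 CPM in SCC1 on day 5 and 167 CPM in SCC6 on day 1. For CDH2 and SNAI1 it was -0.37 and -0.15, against -0.52 and -0.45 without the covariate. For CDH1, SNAI2 and ZEB2 it was -2.61, 1.64 and 1.54, against -2.75, 0.97 and 0.90.

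The wider programme of EMT was read from 9 lists of genes around the members. Of all genes tested, 44.5% were called in SCC1, 30.1% in SCC6 and 18.2% in SCC25, higher or lower. A list whose calls are near these shares does not stand out from genes in general. Among mesenchymal markers in SCC6, 18 of 20 tested rose and 0 fell (median log2 fold change 2.13, against 0.00 for all genes), among them the collagen gene COL5A1 (4.11, edgeR adjusted p = 0.000389) and the actin-binding TAGLN (4.10, 1.72e-05). In SCC1, where VIM fell, 13 of 23 rose and 7 fell (median 0.76), with COL5A1 (2.23, edgeR adjusted p = 0.000669) rising, and the proteoglycan gene VCAN (-2.29, 3.55e-06) and the fibronectin receptor subunit ITGA5 (-1.61, 4.96e-06) falling. In SCC25, 11 of 24 rose and 4 fell (median 0.41), with COL3A1 (1.62, edgeR adjusted p = 0.00125) and MYL9 (1.39, 0.000772) rising and the receptor kinase AXL (-0.62, 0.00526) falling. Some of these markers, COL1A2, COL3A1 and THY1 among them, are also in the fibroblast list above, so the lists are not independent.

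Epithelial regulators, the factors that hold up the epithelial state, were split. In SCC1, 6 of 11 rose and 1 fell (median 0.42), with the grainyhead factor GRHL2 (0.80, edgeR adjusted p = 6.46e-06) rising and EHF (-1.38, 8.44e-05) falling. In SCC6, 2 of 11 rose and 6 fell (median -0.69): GRHL2 (0.55, edgeR adjusted p = 0.00417) and TP63 (1.21, 0.00025), the squamous lineage factor, rose, while ELF3 (-1.27, 0.00024) and GRHL3 (-2.43, 0.00844) were among those that fell. In SCC25, 2 of 10 rose and 0 fell (median -0.02), GRHL2 (0.21, edgeR adjusted p = 0.026) and the splicing regulator ESRP1 (0.20, 0.0262). That is near the 18.2% of all genes called in SCC25.

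Epithelial junction genes fell in SCC6, where 8 of 14 were lower and 0 higher (median -0.63), with the polarity gene PARD6B (-1.83, edgeR adjusted p = 7.71e-05) and the tight junction gene OCLN (-1.34, 0.00278) leading. In SCC1, 3 of 14 rose and 4 fell (median -0.05), with F11R (0.34, edgeR adjusted p = 9.29e-05) up and EPCAM (-0.73, 0.000155) and PARD6B (-0.91, 5.21e-05) down. Calls were about as frequent there as the 44.5% of all genes in SCC1. In SCC25, 3 of 13 rose and 1 fell (median 0.23), with the tight junction gene CLDN1 at 1.27 (edgeR adjusted p = 5.81e-06).

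Of the cadherin partners, the catenins and their like, 2 of 10 rose and 3 fell in SCC1 (median -0.04), 4 rose and 1 fell of 10 in SCC6 (0.12), and 0 rose and 2 fell of 10 in SCC25 (-0.05), beside 44.5%, 30.1% and 18.2% of all genes called. In SCC1, JUP, the gene of plakoglobin, rose (0.48, edgeR adjusted p = 4.45e-05) and CTNNB1, the gene of beta-catenin, fell (-0.35, 0.000458). Of other cadherins, 2 of 6 tested rose and 1 fell in SCC1 (median 0.26), 2 of 5 rose and 0 fell in SCC6 (-0.03), and 1 of 7 rose and 1 fell in SCC25 (0.05). CDH13, which lacks the cytoplasmic tail, fell in SCC1 (-0.61, edgeR adjusted p = 2.2e-05), and CDH11, a cadherin of mesenchymal cells, fell in SCC25 (-0.79, 0.00327).

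Corepressors that work with SNAI and ZEB proteins were mostly lower in SCC1, where 3 of 14 rose and 10 fell (median -0.21), against 2 and 3 of 14 in SCC6 (-0.02) and 0 and 4 of 14 in SCC25 (-0.14). The exceptions in SCC1 included AJUBA, a LIM protein (1.24, edgeR adjusted p = 0.000112), and KDM1A, a histone demethylase (0.56, 3.28e-05). AJUBA also rose in SCC6 (1.05, edgeR adjusted p = 0.00126). Among the helix-loop-helix partners of TWIST proteins and the ID proteins that bind them, 4 of 6 rose and 1 fell in SCC1 (median 0.96), 3 of 7 rose and 0 fell in SCC6 (0.51), and 0 of 7 were called in SCC25 (0.19). ID2 (2.03, edgeR adjusted p = 0.000234) rose in SCC1, and ID3 (1.95, 4.44e-05) and ID4 (2.72, 0.000722) rose in SCC6, while TCF3 fell in SCC1 (-0.27, 0.042).

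Other factors that can drive EMT were mixed, with 2 of 8 higher and 4 lower in SCC1 (median -0.83), 3 and 5 of 8 in SCC6 (-0.78), and 2 and 3 of 9 in SCC25 (-0.03). KLF8 rose in all 3 lines, by 0.93, 1.18 and 0.46 in SCC1, SCC6 and SCC25 (edgeR adjusted p = 1.76e-05, 0.000127 and 0.00389). FOXQ1 fell in SCC1 (-3.66, edgeR adjusted p = 6.41e-07) and SCC6 (-2.25, 2.99e-06), and the chromatin protein HMGA2 fell in SCC1 (-2.87, 5.17e-06). Of the other filament genes and their linkers, 1 of 4 rose and 2 fell in SCC1 (median -0.42), 2 of 5 rose and 0 fell in SCC6 (0.17), and 0 rose and 1 of 5 fell in SCC25 (-0.43). Nestin (NES) had the sign of VIM in each line, at -2.80 in SCC1 (edgeR adjusted p = 3.8e-06), 1.78 in SCC6 (0.00574) and -0.53 in SCC25 (0.00903), and PLEC, a linker, fell in SCC1 (-0.52, 0.049). With the flow cell as a covariate, the calls of CTNNB1, ID2, TCF3 and PLEC in SCC1 and of ESRP1, AXL, CDH11 and NES in SCC25 were lost. Those of TCF3 and PLEC in SCC1 and of GRHL2 and ESRP1 in SCC25 were also lost when single libraries were left out, with an edgeR adjusted p of at most 0.0939, 0.107, 0.0575 and 0.0754.

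**Figure D5:**
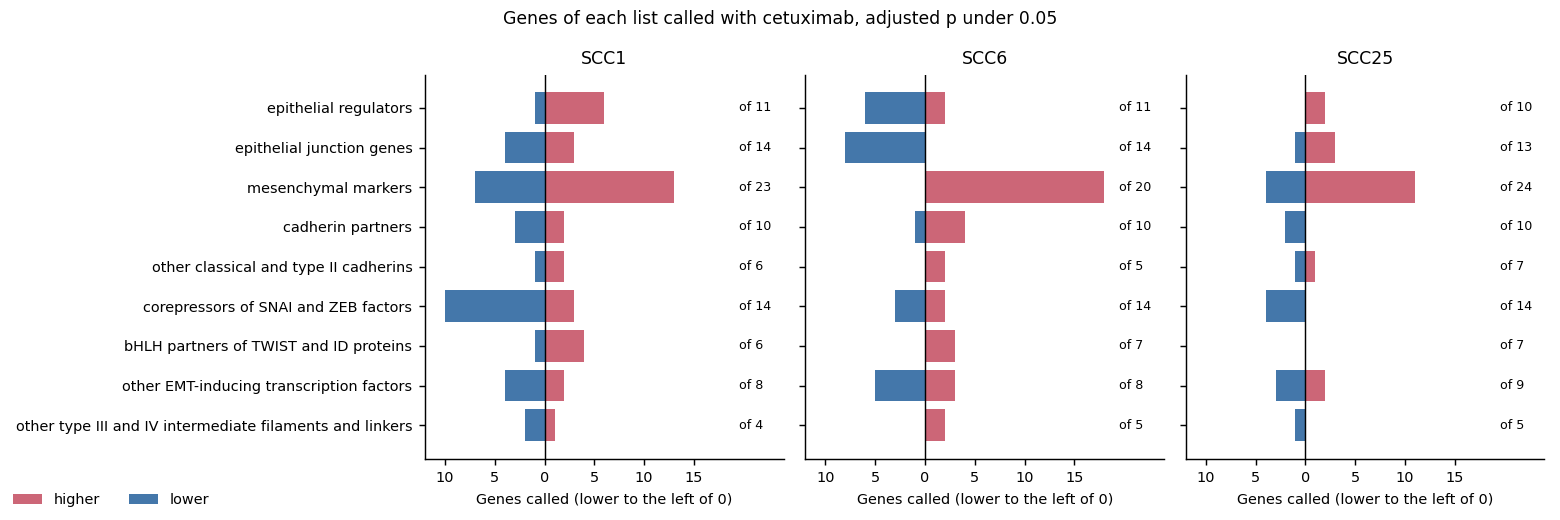
Number of genes of each list that were called higher (right of 0) or lower (left of 0) with cetuximab in SCC1, SCC6 and SCC25, at an edgeR adjusted p under 0.05, with the number tested at the right. Mesenchymal markers in SCC6 are 18 higher and 0 lower of 20, and corepressors in SCC1 are 3 higher and 10 lower of 14. Of all genes tested, 44.5%, 30.1% and 18.2% were called in SCC1, SCC6 and SCC25.

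The genes whose levels ran most like a member over the 33 libraries, after the mean of each line was removed, were looked up among 12541 genes by Pearson correlation of log2 CPM, given as a description since libraries share line, flow cell and culture. For VIM these were CPNE2 (r = 0.945), FRMD4A (0.939) and VDR (0.936). For CDH1 they were IL18 (r = 0.919), DSG3 (0.907) and FXYD3 (0.889), the second being a desmosomal cadherin. For CDH2 they were MSRB3 (r = 0.976), NUAK1 (0.975) and TUBA1A (0.963). For SNAI2 they were SLC2A3 (r = 0.931), DOCK11 (0.881) and NEO1 (0.872), and for ZEB1 they were CDK17 (r = 0.91), ITGA2 (0.903) and ANTXR2 (0.902).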

How the data were processed

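Gene-level RNA-seq values of 33 bulk libraries were used. The deposited values are estimated counts per gene symbol, which the authors made with Salmon (0.8.2 in the submitters' processing notes) and tximport from paired reads of stranded poly(A) libraries, with hg19/GRCh37 named as the build. The annotation release is not given in the sources used here. The estimated counts were rounded to whole numbers. Rounding, and sharing of reads between similar transcripts by Salmon, limit low values.

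Low genes were dropped by filterByExpr, scaling was by TMM, and each comparison was fitted with the robust quasi-likelihood test of edgeR 4.0.16 in R 4.3.3, two-sided, with Benjamini-Hochberg adjustment over all genes and a threshold of 0.05. Levels are CPM (counts over scaled library size) on 1 TMM scale over all libraries, with 0.1 added for log2 values. Intervals are at 95%. Cetuximab was set against PBS of days 1 to 5 within a line, and day 0 entered the PBS trend alone. The trend was also fitted without day 0. Line-by-treatment terms and PBS levels were fitted over the 3 lines together. The alternatives were DESeq2 1.42.0, its size factors, upper quartile scaling, no filter, day as a replicate block, the flow cell as a covariate, day 0 added to PBS, a minimum size of 1 for the log2 change, and leaving out each library. Scripts were tested on simulated data.

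The labels give each library its day, which pairs PBS and cetuximab libraries. In SCC6, days 1 and 2 formed 1 block. The correlation of same-day deviations from group means, over 9926 genes, was 0.11 to 0.386 in SCC1, -0.18 to 0.582 in SCC6 and 0.218 to 0.586 in SCC25. The SCC6 libraries 2a and 2b differed by more than sampling noise (chi-square per gene 23.9) and were kept as separate libraries.

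The members, gene lists and tests were chosen with earlier results of these data known. All members were named, with up to 2 genes per list that rose most and 2 that fell most among those called at a mean log2 CPM of at least 1, of which a part is given, and for 5 members the 3 genes most alike over libraries. Promoter windows came from RefSeq on GRCh38.p14 and gene positions from GENCODE on GRCh37. Python 3.11.15, pandas 2.3.3 and matplotlib 3.10.9 were used for sequences and figures.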

Additional observations from a re-analysis of the deposited data

Results flagged for a closer look

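In 5 of 56 groups of 5 daily libraries, 1 library stood apart from the others by Dixon's criterion, which chance meets in about 1 in 20 groups. SNAI1 was 4.71 CPM in SCC6 with PBS on day 3, the next library being at 3.41 CPM. ZEB1 was 10.2 CPM in SCC25 with cetuximab on day 3, against 8.14 CPM in the next. ZEB2 was 4.27 CPM in SCC1 with cetuximab on day 1, against 2.85 CPM in the next, and 1.18 CPM in SCC6 with PBS on day 1, against 1.73 CPM in the next. CDH1 was 141 CPM in SCC1 with PBS on day 5, against 112 CPM in the next, and this is the PBS library of SCC1 that shares a flow cell with the cetuximab libraries.

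The change with cetuximab differed between lines for 6 members by edgeR's line-by-treatment terms, of which TWIST1 was lost with the flow cell as a covariate (adjusted p = 0.156). For SCC1 minus SCC6 the difference on the log2 scale was -0.89 for SNAI2, -1.29 for ZEB1, 1.43 for CDH1, -2.43 for CDH2 and -5.91 for VIM. For SCC6 minus SCC25 it was 1.3 for SNAI2, -0.77 for ZEB1, 1.04 for TWIST1, -0.89 for CDH1, 2.15 for CDH2 and 2.49 for VIM. For SCC1 minus SCC25 it was -2.06 for ZEB1 and -3.42 for VIM.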

How the results depend on the processing

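Counts of members called moved by over 1.5 times in these cases. Asking for a log2 change of 1 or more in size left 2 members in SCC1, 2 in SCC6 and 0 in SCC25. The flow cell as a covariate left 2 in SCC25, 3 for the line difference SCC6 minus SCC25 and 3 for PBS in SCC1 minus SCC6. With day as a replicate block, 4 were called for the line difference SCC1 minus SCC25 and 4 in SCC25 on days 1 to 3, and this block added CDH1 in SCC6 and VIM in SCC25 as given above. DESeq2 called 3 for later minus earlier in SCC6, 2 for the PBS trend in SCC1 and 5 in SCC25. Without the filter these were 2 in SCC6 and 1 in SCC1. For these settings the share of all genes called is given only for DESeq2 in SCC6 and in the SCC1 trend, in the text above. The other counts here, and those with a library left out below, describe the members alone. Beyond fewer libraries or a stricter threshold, the cause was not tested.

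When each library was left out, the number called was 6 to 6 in SCC1, 5 to 7 in SCC6 and 2 to 5 in SCC25 (2 without cetuximab day 4). It was 6 to 7 for any line difference in change, 5 to 6 for SCC1 minus SCC6, 5 to 6 for SCC6 minus SCC25 and 2 to 3 for SCC1 minus SCC25. For PBS it was 8 to 10 between any lines, 6 to 8 for SCC1 minus SCC6, 8 to 9 for SCC6 minus SCC25 and 7 to 9 for SCC1 minus SCC25. On days 1 to 3 it was 3 to 5 in SCC1, 5 to 7 in SCC6 and 1 to 5 in SCC25, on days 4 and 5 it was 3 to 5, 2 to 6 and 0 to 6, and for later minus earlier 0 to 0, 0 to 2 and 0 to 1. For the PBS trends it was 0 to 2 in SCC1, 2 to 6 in SCC6 and 1 to 3 in SCC25.

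The sign turned in these cases. SNAI2 in SCC1 was 0.0341 with upper quartile scaling, 0.0264 with the flow cell and -0.0665 to 0.0567 with a library left out. CDH2 in SCC1 was -0.00954 with the flow cell and -0.0146 to 0.135 with a library left out, ZEB2 in SCC1 was -0.229 to 0.0476 (highest without PBS day 1) and CDH3 in SCC25 was -0.0876 to 0.0263 (highest without cetuximab day 3). With the flow cell, TWIST2 in SCC25 was 0.0992, TCF3 and PLEC in SCC1 were 0.142 and 0.178, and VIM with PBS for SCC1 minus SCC6 was -0.218. Low counts limit SNAI1, ZEB1 and ZEB2, and TWIST2 in SCC1 and SCC6 was at or under the floor.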
